A study of Mus musculus with 6 samples.

Results

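The AIM2-like receptors are the proteins of the p200 family, also called PYHIN proteins, whose mouse genes lie side by side on chromosome 1. RNA-Seq counts of this family were compared between bone marrow-derived macrophages (BMDM) of LysMcre PP2Ac fl/fl mice (PP2Ac KO, or KO, 3 libraries, labelled PP2A KO) and of WT mice (PP2Ac WT, or WT, 3 libraries, labelled Wild Type), both on the C57BL/6 strain. The family was taken as 10 gene symbols looked up in the counts table: Aim2, Ifi203, Ifi204, Ifi205, Ifi207, Ifi209, Ifi211, Ifi213, Mnda and Mndal. Of these 10, 9 had a row among the 55453 genes of the table, and 9 of those 9 passed the filter on low counts, as 13680 genes did in all. No row carries the symbol Mnda, which RefSeq gives as a synonym of Ifi211, so Mnda was not analysed here.

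In the PP2Ac KO mice, loxP sites flank exon 1 of Ppp2ca, the gene of a catalytic subunit of the phosphatase PP2A, and Cre is driven by the Lysozyme 2 promoter, which is active in macrophages and other myeloid cells. The labels give no treatment, age or sex. The study's text describes RNA-Seq of macrophages stimulated with cGAMP, the cyclic dinucleotide that activates STING, and all 6 libraries are taken as such. There is then no unstimulated group among them. A difference between KO and WT that was present before cGAMP cannot be told apart from a different response to it. The KO mice came from another laboratory and the controls were WT mice from a supplier, not described as carrying Cre or floxed alleles, so mouse source, Cre and the deletion cannot be told apart. The study's methods describe cell experiments in general as biological triplicates. No source says that these libraries came from separate animals, so p-values measure the spread between these libraries.

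Most p200 proteins pair a pyrin domain, which binds other pyrin domains, with one or more HIN domains, which bind double-stranded DNA. AIM2 binds DNA in the cytosol and recruits the adaptor ASC and caspase-1 into an inflammasome, which matures interleukin-1β and interleukin-18 and cuts gasdermin D. IFI204, the mouse protein most often compared with human IFI16, is known as a DNA sensor that acts through STING. Most genes of the family are induced by type I interferon, and they are well expressed in myeloid cells.

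The 9 members span 680.9 kb of chromosome 1 in the mouse genome build GRCm38 (mm10), from 173350879 to 174031810, with 7 members on the reverse strand and Aim2 and Ifi209 on the forward strand. The same stretch holds 5 more p200 genes with a row: Ifi202b, Ifi203-ps, Ifi206, Ifi208 and Ifi214. Aim2, from 173350879 to 173466040, stands at one end of the cluster and Ifi205, from 174011998 to 174031810, at the other. Mndal (173849126 to 173942491) and Ifi203 (173920407 to 173942672) overlap, and 4.27% of the annotated exon bases of Mndal and 0.552% of those of Ifi203 are also exon of another gene on the same strand. For the other 7 members this share was 0%, and no member shared exon bases with a gene on the opposite strand.

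The letters GAAANNGAAA form the core of the interferon-stimulated response element, to which ISGF3 and interferon regulatory factors bind. Windows from 250 bases before to 50 bases after a transcription start, from RefSeq on GRCm38.p6, were searched for this motif on both strands. It occurred in the windows of 6 of the 8 members that matched the table (75%), in 7 of their 10 windows, and in those of 3 of the 4 other p200 genes that matched. Among all genes with such windows 3.99% held it, and among the genes tested here 4.12%. On the strand of the gene, its first base lay 36 bases before the start in Mndal, 35 in Ifi203, 37 in Ifi211, 41 in Ifi207, 73 in Ifi213 and 134 in Ifi205. The opposite strand held a further match in a separate window of Mndal and another in Ifi205, 23 bases after the start. A match describes these letters only and shows no binding. Some p200 genes have identical stretches around the motif, as given below, so these counts of genes and windows are not of separate occurrences. The stretches around the motif are shown to let the members be compared, each 5′ to 3′ along its gene with the motif in capitals. They are chr1:173599311-173599370 for Ifi213, chr1:173741816-173741875 for Ifi207, chr1:173880189-173880248 for Mndal, chr1:173913049-173913108 for Ifi211 and chr1:174031855-174031914 for Ifi205, all on the reverse strand.
Ifi213: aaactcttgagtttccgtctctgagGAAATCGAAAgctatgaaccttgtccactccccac
Ifi207: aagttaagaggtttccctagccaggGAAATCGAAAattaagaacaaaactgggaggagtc
Mndal: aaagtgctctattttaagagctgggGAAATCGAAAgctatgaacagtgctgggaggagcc
Ifi211: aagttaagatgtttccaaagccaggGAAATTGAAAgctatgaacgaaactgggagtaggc
Ifi205: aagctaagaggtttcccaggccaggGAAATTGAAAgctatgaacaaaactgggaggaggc

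The stretch around the Ifi203 motif (chr1:173942493-173942552) was identical to that of Mndal, base for base, and the stretch of Ifi208 (chr1:173673582-173673641, forward strand) was identical to that of Ifi213. Ifi211 and Ifi205 carry GAAATTGAAA and the other members with the motif GAAATCGAAA. The windows of Aim2 and Ifi209 held no match. The Aim2 window, chr1:173420354-173420653, is set by a RefSeq start that lies inside the longer Aim2 gene of the GENCODE annotation. The Mndal windows likewise lie inside the longer Mndal gene of that annotation, on which the overlap of Mndal with Ifi203 rests. In Ifi209 the letters at the corresponding place (chr1:173630755-173630814, forward strand) differ from those of Ifi214 (chr1:173536002-173536061, reverse strand), the gene whose transcripts share most sequence with it, at 6 of 60 positions. Counted from 1 at the 5′ end of the stretch, with the base of Ifi214 first, these are C8T, G17A, G26T, C37A, T50C and A57G. G26T is the first base of the motif, and it alone of the 6 lies in the motif. Both are shown for that difference, with the motif of Ifi214 and the corresponding letters of Ifi209 in capitals.
Ifi214: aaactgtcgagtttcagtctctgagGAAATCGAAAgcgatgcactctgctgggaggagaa
Ifi209: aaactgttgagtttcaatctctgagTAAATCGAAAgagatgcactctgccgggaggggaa

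The libraries held 35257156 to 47390899 counts, so that 3 counts correspond to 0.0604 to 0.0909 CPM (a gene's counts scaled to a common library size, with TMM factors). Ppp2ca had 47, 33 and 38 counts in PP2Ac KO and 10654, 8913 and 8279 in PP2Ac WT. Of the 8 macrophage markers listed, 8 were tested and 2 called higher (Fcgr1 and Mertk), against 18.1% of all genes, and 5 with replicate numbers as a block. Their summed level was 8623 to 8733 CPM in PP2Ac KO and 7279 to 7840 CPM in PP2Ac WT. Lyz2, the gene whose promoter drives Cre, was the lowest of them at 6.58 to 10.1 CPM, for a reason that was not tested. The 5 fibroblast markers Col1a1, Col1a2, Col3a1, Dcn and Pdgfra were all called lower in PP2Ac KO, against 19.0% of all genes. Their summed level was 23.3 to 35.0 CPM in PP2Ac KO and 76.5 to 120.6 CPM in PP2Ac WT. The T and NK cell, mast cell and erythroid lists gave no tested gene, with Cd8a at 0 in every library, and no such list summed to more than 0.401 CPM in a library. Among B cell, neutrophil and dendritic cell markers, Siglech alone of 6 tested was called higher, Ly6g was at 0, and each list summed to 0.664 to 2.36 CPM. The part of these other cells in the p200 results was not tested.

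All 9 members were higher in PP2Ac KO than in PP2Ac WT BMDM, by 1.33-fold for Ifi207 to 4.38-fold for Ifi205. In edgeR's quasi-likelihood test, at a Benjamini-Hochberg adjusted p below 0.05, 9 of 9 were called higher and 0 lower, where 18.1% of all genes tested were called higher and 19.0% lower. Every PP2Ac KO library lay above every PP2Ac WT library for 9 of 9 members, against 24.0% of all genes. The stricter thresholds of a log2 fold change over 1 and an adjusted p under 0.01 were passed by 5 members (Ifi205, Ifi213, Ifi209, Mndal and Ifi203), against 3.36% of all genes, and 0 members passed them downward (2.99% of all genes). The median log2 fold change of the members was 1.10, beside -0.02 for all genes tested, whose 5th and 95th percentiles were -0.92 and 0.91. In these bulk cultures, more cells that express a gene and more RNA per cell cannot be told apart.

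**Figure D1:**
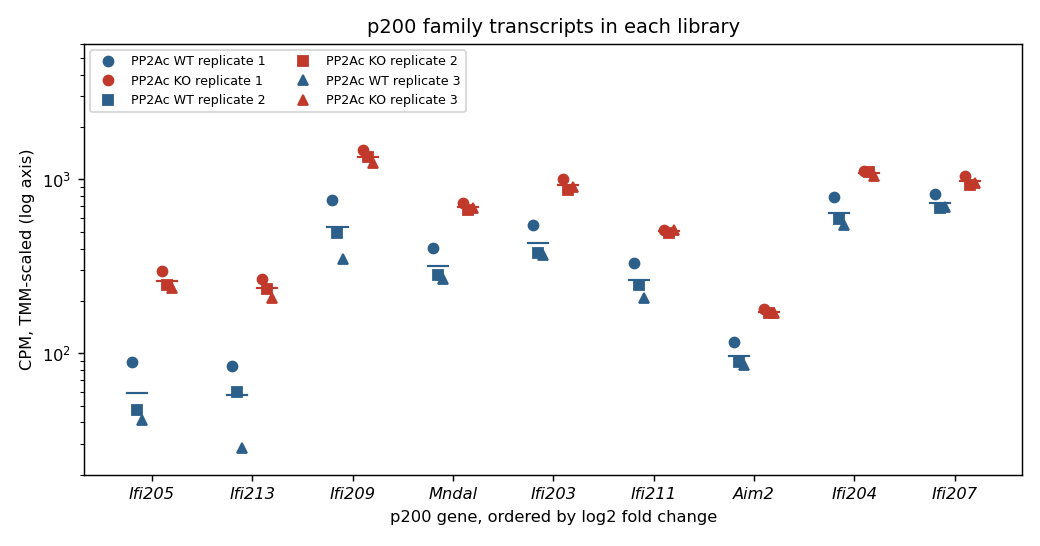
CPM (TMM-scaled, log axis) of the 9 members in each of the 6 libraries, with red for PP2Ac KO, blue for PP2Ac WT, a symbol for each replicate number and a bar at the mean of each group. Every red point lies above every blue point of the same gene, and PP2Ac WT replicate 1 is the highest blue point for 9 of 9 members.

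Aim2, the DNA receptor of the inflammasome, had 180.4, 170.2 and 169.7 CPM in KO replicates 1, 2 and 3 and 115, 88.6 and 85.8 CPM in WT replicates 1, 2 and 3. The KO values lay close together, and the lowest was 1.47 times the highest WT value. The log2 fold change was 0.84 with a standard error (SE) of 0.11 (edgeR adjusted p = 4.32e-04, over all genes tested), a 1.80-fold difference. Aim2 was also the member whose sequence was most its own, since 0% of the 50-base windows in its annotated transcripts occur in those of another p200 gene.

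Ifi204, the STING-linked DNA sensor, had 1123, 1102 and 1044 CPM in KO and 795, 589 and 547 CPM in WT, in the order of the replicates as throughout. It was abundant in both groups, and its lowest KO value was 1.31 times its highest WT value. Its log2 fold change was 0.76 with an SE of 0.13 (edgeR adjusted p = 0.00168). Ifi204 had no window in the promoter table.

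Ifi205, which encodes a p200 protein with a pyrin and a HIN domain, showed the largest difference of the members. Its level was 297, 245 and 236 CPM in KO and 88.7, 47.4 and 41.5 CPM in WT, with the first WT replicate well above the other WT libraries. Even so, the lowest KO value was 2.67 times the highest WT value. The log2 fold change was 2.13 with an SE of 0.25 (edgeR adjusted p = 3.01e-04), which ranked 58 of 13680 genes from the highest.

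Ifi213, for which RefSeq gives the pyrin domain name Pydc4 as a synonym, followed with 266, 234 and 209 CPM in KO against 84.8, 59.9 and 28.5 CPM in WT. Among the members its WT libraries were spread most widely, the highest at 2.97 times the lowest, yet the groups did not overlap. The log2 fold change was 2.03 with an SE of 0.31 (edgeR adjusted p = 0.00104), rank 71 from the highest.

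Ifi209, known also as Pyhin1, had the highest CPM of the members in PP2Ac KO, with 1474, 1339 and 1235 CPM against 758, 493 and 349 CPM in WT. The highest WT library, replicate 1, was 2.17 times the lowest, replicate 3, and the KO libraries stayed within a factor of 1.19 of each other. Its log2 fold change was 1.34 with an SE of 0.23 (edgeR adjusted p = 0.00188). Ifi209 passed the stricter thresholds, with no GAAANNGAAA in its window.

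Mndal and Ifi203, whose motif stretches are identical and whose exons overlap slightly, both passed the stricter thresholds. Mndal had 731, 669.8 and 686 CPM against 400.2, 281 and 266 CPM, and its log2 fold change was 1.14 with an SE of 0.14 (edgeR adjusted p = 3.76e-04). Ifi203 had 1000.5, 872 and 900.3 CPM against 548, 378 and 367 CPM, and its log2 fold change was 1.10 with an SE of 0.15 (edgeR adjusted p = 4.98e-04). In both genes the first WT replicate was the highest of its group and stayed below every KO library. The ratio of Ifi203 to Mndal counts was 1.37, 1.30 and 1.31 in PP2Ac KO and 1.37, 1.35 and 1.38 in PP2Ac WT, so that the groups overlapped (exact permutation p = 0.2, 2-sided).

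Ifi211 had 509.7, 489 and 511 CPM in KO, the tightest KO values of the family with a coefficient of variation of 2.41%, and 332, 246 and 209 CPM in WT. Its log2 fold change was 0.94 with an SE of 0.14 (edgeR adjusted p = 0.00105), short of the stricter thresholds. Ifi207 was the least changed member, at 1043, 932 and 952 CPM in KO and 828, 680.0 and 689.9 CPM in WT. Its lowest KO library exceeded its highest WT library by a factor of 1.13, and the log2 fold change was 0.41 with an SE of 0.09 (edgeR adjusted p = 0.00697). Ifi207 was nonetheless among the most abundant members in both groups, and its window holds the same GAAATCGAAA as that of Ifi213.

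**Figure D2:**
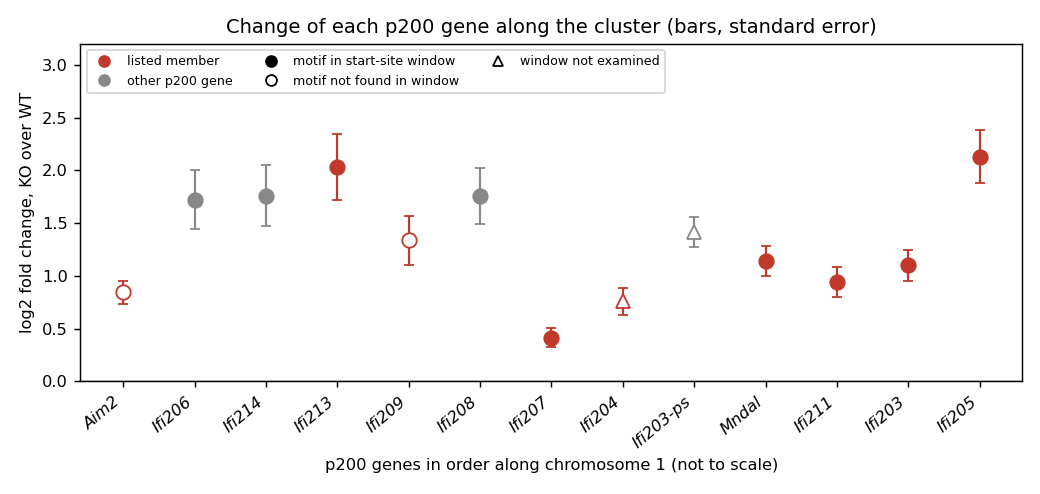
Log2 fold change (PP2Ac KO over PP2Ac WT, edgeR, bars are standard errors) of the 13 p200 genes tested, in their order along chromosome 1 and not to scale; red marks the listed members and gray the other p200 genes, and filled circles mark genes whose start-site window holds GAAANNGAAA. The genes with the motif run from 0.41 (Ifi207) to 2.13 (Ifi205), and Aim2 and Ifi209, without it, had 0.84 and 1.34.

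The WT libraries differed among themselves more than the KO libraries did, in the members as a group. The median coefficient of variation of the members was 6.04% in PP2Ac KO and 23.5% in PP2Ac WT, and over all genes tested it was 7.51% and 8.54%. PP2Ac WT replicate 1 was the highest WT library for 9 of 9 members (40.5% of all genes), and PP2Ac WT replicate 3 the lowest for 8 of 9 (37.2% of all genes). PP2Ac KO replicate 1 was the highest KO library for 8 of 9 members (35.6% of all genes), the exception being Ifi211. Ifnb1, which encodes interferon-β, had 19.2, 13.1 and 15.4 CPM in KO and 8.86, 5.91 and 4.32 CPM in WT, with replicate 1 again the highest of each group. Whether the level of Ifnb1 bears on the spread of the members was not tested. Leaving out PP2Ac WT replicate 1 raised the number of members past the stricter thresholds from 5 to 6 by adding Ifi211 (log2 fold change 1.15). Leaving out PP2Ac WT replicate 2 lowered it to 4, without Ifi209 (edgeR adjusted p = 0.0113), and so did leaving out PP2Ac WT replicate 3, without Ifi203 (log2 fold change 0.998).

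Summed over the 9 members, p200 counts made up 0.602%, 0.567% and 0.557% of all counts in KO replicates 1, 2 and 3, and 0.414%, 0.311% and 0.283% in the WT replicates. In CPM the sums were 6625, 6054 and 5943 against 3951, 2863 and 2583, a 1.98-fold difference of the means with no overlap. Per kilobase of annotated exon, the levels in PP2Ac WT fell in the order Ifi207 (214 ± 24.1 CPM per kilobase, SD, n = 3), Ifi204 (181 ± 37.3), Ifi209 (150.4 ± 58.6), Ifi211 (147 ± 35.5), Mndal (87.0 ± 20.3), Ifi203 (64.3 ± 15.1), Aim2 (27.6 ± 4.65), Ifi205 (14.2 ± 6.16) and Ifi213 (8.44 ± 4.12). Neighbors in this order overlapped except between Ifi211 and Mndal, between Ifi203 and Aim2 and between Aim2 and Ifi205. In PP2Ac KO, Ifi209 was first at 380.5 ± 33.8 CPM per kilobase (SD, n = 3), above Ifi204 (306 ± 11.5), Ifi207 (285 ± 17.2) and Ifi211 (282 ± 6.81), and these last 3 overlapped as neighbors. Ifi205, at 62.1 ± 7.79, stood above Aim2 at 49.5 ± 1.73 in PP2Ac KO, with no overlap, whereas it stood below Aim2 in PP2Ac WT. The order depended on the length taken for a gene. With the longest annotated transcript in place of all exons, an alternative chosen after seeing the data, Ifi204 came first in both groups, at 474.5 ± 17.8 CPM per kilobase in KO, where Ifi209 had 392.4 ± 34.9, and at 280.4 ± 57.8 in WT, where Ifi207 had 214 ± 24.1 (SD, n = 3). By that length too, Ifi205 stood above Aim2 in KO and below it in WT.

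The unequal changes showed in the makeup of the family signal, taken as each member's share of the summed counts per kilobase. Ifi207 held 16.6%, 16.1% and 16.7% in KO, whereas its WT shares were 21.5%, 24.2% and 27.4%, and the mean difference was -7.88 percentage points. Ifi209 moved the other way, from 19.0%, 17.0% and 13.3% in PP2Ac WT to 22.7%, 22.3% and 20.9% in PP2Ac KO, a mean difference of 5.54 points. Ifi205 had a mean share of 3.58% in PP2Ac KO and 1.54% in PP2Ac WT, and Ifi213 of 1.99% and 0.912%. Ifi211 kept overlapping shares, with means of 16.3% and 16.4%. For 8 of 9 members the shares did not overlap between the groups, and each of these gave an exact 2-sided permutation p of 0.1, the smallest that 3 against 3 libraries allow (0.1125 adjusted over the 9 members), so the design could not reach 0.05. The shares of a library add up to a fixed total, so these 8 are not separate results. Ifi207 had a smaller share in KO although its level was 1.33-fold higher there.

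**Figure D3:**
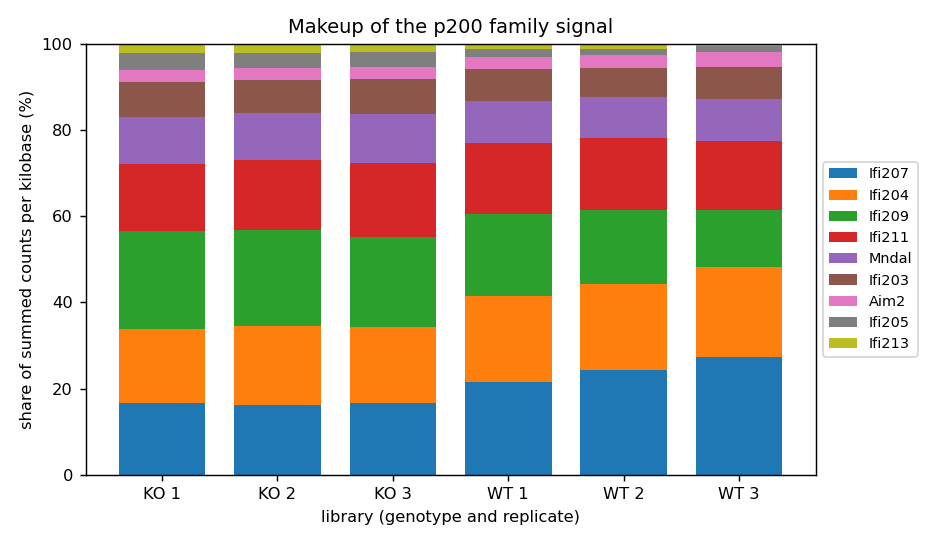
Share (%) of each member in the summed counts per kilobase of exon of the 9 members, 1 stacked bar for each library. The Ifi207 block takes 16.1% to 16.7% of each PP2Ac KO bar and 21.5% to 27.4% of each PP2Ac WT bar, and the Ifi209 block 20.9% to 22.7% and 13.3% to 19.0%.

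Several members are near copies of each other in part, which bears on how far their values are separate. Of the 50-base windows in annotated transcripts, 72.8% of those of Ifi211 also occur in another p200 gene, 44.7% in Ifi205 and 30.1% in Ifi204. The share was 33.4% for Ifi209, all of it with Ifi214, between 12.2% and 19.2% for Ifi203, Ifi213, Mndal, Ifi205 and Ifi204, and 5.39% for Ifi207. How reads that fit several genes were counted is not given in the sources used here, so the split of counts among these members, Ifi211 above all, is uncertain. Genes were summed where at least 10% of the windows of either gene of a pair occur in the other, and links through another gene counted. Ifi204, Ifi205, Ifi211 and Mndal were linked only through Ifi211. Together they had 2548 ± 98.5 CPM in KO against 1281 ± 295 CPM in WT (SD, n = 3), a 1.99-fold difference. The sum of Ifi203 and Ifi203-ps differed 2.16-fold, that of Ifi209 and Ifi214 2.53-fold, and that of Ifi213, Ifi206 and Ifi208 3.52-fold, with every KO library above every WT library in each sum. The ratio of Ifi205 to Ifi211 counts, the pair that shares the largest part of the windows of Ifi211, was 0.582, 0.502 and 0.463 in PP2Ac KO and 0.267, 0.193 and 0.199 in PP2Ac WT. These ratios did not overlap (exact permutation p = 0.1, 2-sided, the smallest possible, and 0.125 adjusted over 5 such pairs).

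The p200 genes of the cluster outside the 10 symbols were higher as well. Of the 5 with a row, 4 were tested, and 4 of 4 were called higher and passed the stricter thresholds, against 18.1% and 3.36% of all genes. Ifi206 had 413, 359 and 322 CPM in KO and 158, 113 and 59.9 CPM in WT, with a log2 fold change of 1.72 (edgeR adjusted p = 0.00144). Ifi208 had a log2 fold change of 1.76 (edgeR adjusted p = 9.64e-04) and Ifi214, which stayed at 10.9 CPM or less, of 1.76 (edgeR adjusted p = 0.00138). The pseudogene Ifi203-ps, which shares 26.3% of its windows with other p200 genes, had 1.42 (edgeR adjusted p = 1.47e-04). Ifi202b, a HIN protein without a pyrin domain that is known to hold AIM2 in check, had 3 counts or fewer in each library and was not tested. Pydc3 and Pydc4 had no row under those symbols, which RefSeq gives as synonyms of Ifi208 and Ifi213.

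Of 39 protein-coding genes within 1 Mb of the outermost members that had a row, 20 were at 0 in every library and 11 were tested. Slamf9 (log2 fold change 1.30), Igsf9 (1.23) and Slamf8 (1.10) were called higher by edgeR, 3 of 11 where 18.1% of all genes were, with adjusted p-values of 1.22e-04, 1.81e-04 and 6.16e-05. Another 2 of 11 were called lower, where 19.0% of all genes were, among them Kcnj10 (-0.55, edgeR adjusted p = 0.0328). The median of the 11 was 0.03, beside 1.10 for the members. Both counts are near the shares for all genes and are not a result about these neighbors.

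In the AIM2 inflammasome list of partners and products, 10 of 12 genes tested were called higher and 0 lower, against 18.1% and 19.0% of all genes. The list had a median of 0.89 on the log2 scale. Zbp1, a sensor of Z-form nucleic acids, had 553, 522 and 488 CPM in KO and 226, 170.0 and 113 CPM in WT (log2 fold change 1.62, edgeR adjusted p = 4.02e-04). Il1b (1.51) and Il18 (0.98), the cytokines that caspase-1 matures, were both higher, as were Casp1 (0.95), Casp4 (1.07), Gsdmd (0.83) and the pyrin gene Mefv (1.10). Pycard, which encodes ASC, the adaptor that AIM2 binds through its pyrin domain, had 25.4, 26.8 and 26.3 CPM in KO and 20.6, 21.5 and 21.3 CPM in WT, a log2 fold change of 0.31 with an SE of 0.06 (edgeR adjusted p = 0.00344). Il1a (0.41, edgeR adjusted p = 0.258) and Ripk3 (0.40, edgeR adjusted p = 0.184) were not called, although Ripk3 was when replicate numbers entered as a block (edgeR adjusted p = 1.42e-04).

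Of the 12 genes tested for cytosolic DNA sensing through STING, 6 were called higher (18.1% of all genes), 1 lower (19.0%) and 5 not. Their median was 0.23 on the log2 scale. Those called higher were Irf7 (1.53), the nucleotide hydrolase gene Samhd1 (1.03), the kinase genes Ikbke (0.91) and Tbk1 (0.45), Cgas (0.39), whose product makes cGAMP, and Tmem173 (0.35), which encodes STING. Dnase2a, a lysosomal nuclease gene, was lower (-0.30, edgeR adjusted p = 0.0211). That call depended on single libraries, as 0 genes of this list were called lower when PP2Ac KO replicate 1 or PP2Ac WT replicate 2 or 3 was left out. Irf3 (-0.05, edgeR adjusted p = 0.636) was not called. Trex1 was at 0 in every library and was not tested. With the replicate block the list gave 7 higher and 2 lower, Trim56 (edgeR adjusted p = 0.0476) and Trim32 (edgeR adjusted p = 0.0313) being added.

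The interferon list covers interferon-β, its receptor, genes of its signaling and feedback, and genes of ISGF3 and interferon regulatory factors. Binding of these factors to the p200 genes was not tested. In this list 11 of 13 genes tested were called higher and 0 lower, against 18.1% and 19.0% of all genes. Its median was 0.65 on the log2 scale. Ifnb1 had a log2 fold change of 1.32 with an SE of 0.23 (edgeR adjusted p = 0.002). Stat2 (0.65) and Irf9 (0.28), which encode subunits of ISGF3, were called higher, as were Irf1 (0.64) and the feedback inhibitor Usp18 (1.27). Ifnar1 (0.19, edgeR adjusted p = 0.0565) and Jak1 (0.14, edgeR adjusted p = 0.181) were not called, and with the replicate block both were, at adjusted p-values of 0.00222 and 0.0176 from edgeR.

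**Figure D4:**
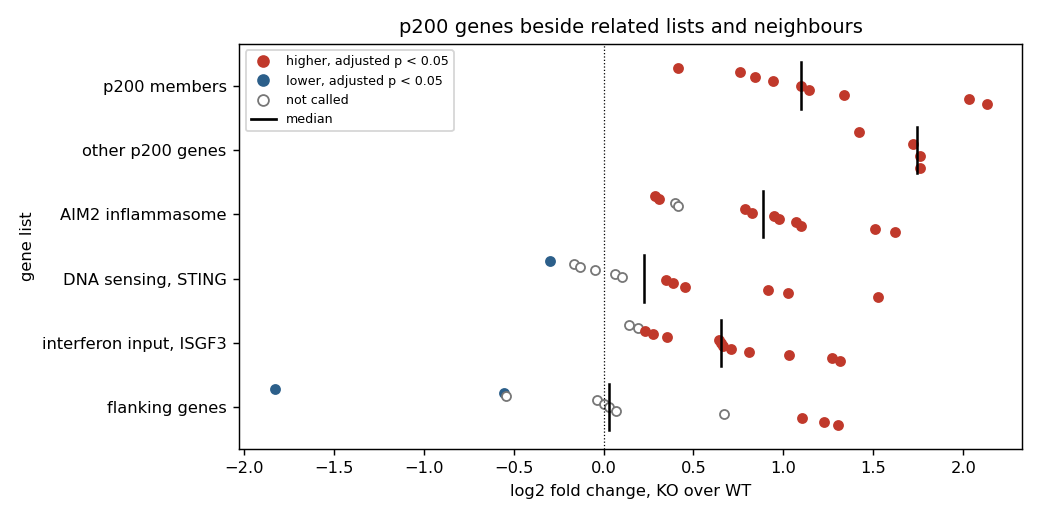
Log2 fold change (PP2Ac KO over PP2Ac WT, edgeR) of every tested gene of the p200 members, the other p200 genes, 3 related gene lists and the genes flanking the cluster; filled points are called at an adjusted p under 0.05 (red higher, blue lower), open points are not called, and black bars are medians. The members have a median of 1.10 and the other p200 genes of 1.74, against 0.89, 0.23 and 0.65 for the lists and 0.03 for the flanking genes.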

How the data were processed

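RNA-Seq was measured in 6 libraries of BMDM, 3 PP2Ac KO and 3 PP2Ac WT, grouped by the genotype and replicate number of their labels. The authors deposited 1 table of counts of reads per gene, as whole numbers without normalization. Libraries were poly(A)-selected, made with a directional kit and read as 150-base pairs. The submitters' processing notes name fastp 0.20.0, STAR 2.7.1a, HTSeq 0.11.2, kallisto 0.46.1, edgeR 3.34.0, limma 3.48.3 and the build mm10, without roles. The strand setting, annotation release and treatment of reads that fit several genes are not given in the sources used here, and reads split between similar genes would change single p200 values.

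The whole table was fitted by edgeR 4.0.16 in R 4.3.3 (filterByExpr with a minimum count of 10 and total of 15, TMM, glmQLFit, glmQLFTest), with genotype as the only term and Benjamini-Hochberg adjustment over 13680 genes. The biological coefficient of variation was 8.77%. CPM were scaled by TMM factors of 0.9098 to 1.097, and single values were tested by exact permutation (scipy 1.17.1). Depth limits cover counting error only. The same script was tested on simulated data.

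The replicate numbers come from the labels, and nothing says what they share. Deviations from the group means of same-numbered libraries correlated at 0.289, 0.148 and 0.337, so the numbers were taken as pairs in an alternative fit. No libraries of a genotype agreed within sampling noise (chi-square per degree of freedom of at least 9.5).

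Coordinates, exons and transcripts came from GENCODE M21 (GRCm38), in which 98.3% of the symbols occur, and start-site windows from RefSeq (GRCm38.p6). Of the members, 8 matched a window.

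The members, the lists of other p200, inflammasome, STING and interferon genes, the markers and the tests were chosen with earlier results of these data known. Named are all members, Ppp2ca and Ppp2cb, and from each list the genes with the largest changes and those with the defining role. The flanking genes were found by position. Values of some listed genes are not reported here. Tried besides were upper-quartile and RLE scaling, no filter, at least 10 counts in every library, DESeq2 1.42.0, limma-voom (limma 3.58.1), the replicate block and each library left out. Longest transcripts as gene length and sums over all p200 genes were added after seeing the data.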

Additional observations from a re-analysis of the deposited data

How the results depend on the processing

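All 9 members were called higher and 0 lower under each of the 13 alternative fits (RLE and upper-quartile scaling, no filter, at least 10 counts in every library, DESeq2, limma-voom, the replicate block and 6 fits with 1 library left out), and the 169 values of the 13 p200 genes under them kept direction and side of the threshold. Adding the replicate block, read as pairs, gave 9 members higher and 5 past the stricter thresholds, as without it. With single libraries left out the number past the stricter thresholds was 4 to 6, and 0 passed downward. Over all alternatives the log2 fold change of Ifi205 ran from 1.93 to 2.55, of Ifi213 from 1.71 to 2.42, of Ifi209 from 1.11 to 1.68 and of Ifi207 from 0.35 to 0.51, with a largest edgeR adjusted p of 0.0367 for Ifi207 without PP2Ac WT replicate 2. In all genes, 2470 were called higher and 2604 lower, 2095 and 3356 with upper-quartile scaling (median log2 fold change -0.09), and 3343 and 3615 with the block. Ppp2cb, which encodes the paralog of the deleted subunit (log2 fold change 0.03, not called), turned to -0.0368 with upper-quartile scaling. Member shares did not overlap for 8 of 9 members without any 1 library and with the longest transcript as length, and for 7 when all p200 genes were summed. The order of the levels per kilobase changed with that length. Sequence shared within the family limits single members, and 3 libraries per group limit the tests of shares and ratios.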
